A study of Homo sapiens with 22 samples.

Results

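The regions described are promoter MTBP peaks that overlapped no listed early S-phase initiation zone in DLD-1 cells, an established line from a human colorectal adenocarcinoma. They were chosen by 2 deposited lists together: a row of the MTBP peak list had to carry the authors' promoter class, and it had to overlap no initiation zone by even 1 bp. On chromosomes 1 to 22 and X, 7537 peaks met this rule, 25.3% of the 29848 MTBP peaks and the larger part of the 10363 promoter peaks. The other 2826 promoter peaks overlapped at least 1 of the 2473 zones. That these 7537 peaks carry MTBP, sit near start sites and lie outside zones is therefore the rule and not a result. The libraries number 22, and their groups are given by genotype. FLAG CUT&RUN was made from MTBP-mAID/MTBP-deltaC-FLAG cells (3 libraries), MTBP-mAID/MTBP-WT-FLAG cells (3) and the MTBP-mAID/MTBP-mAID control, whose label names no FLAG allele (3). All these cells thus carry a degron-tagged copy of MTBP (mAID, a tag for induced protein degradation), and deltaC names the altered copy as the labels do. IgG (2 libraries) and H3K4me2 (2) CUT&RUN used the WT-FLAG cells. EdU-seq came from deltaC-FLAG cells released into S phase (3), WT-FLAG cells released the same way (3) and WT-FLAG cells held in G1 (3), with EdU at 10 µM for 3 hr. The deposited lists give 1 value per line for each peak and none per library. Errors between cultures are therefore unknown, no p-value is given for any comparison, and intervals cover counting over peaks only. The depth of the libraries is unknown.

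MTBP binds Treslin, and the pair helps turn a loaded, inactive replicative helicase into an active one at the start of S phase. CUT&RUN releases the DNA around a protein by tethering a nuclease to its antibody. EdU-seq sequences newly made DNA, so that stretches replicated first after release stand out as initiation zones. Initiation later in S phase need not appear in the list of zones. H3K4me2 is a histone mark of active promoters and enhancers. Active promoters are nucleosome-poor and are a known neighbourhood of mammalian replication origins, yet many active promoters replicate passively from origins elsewhere.

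The promoter label held as a class of distance. Promoter-class peaks had authors' distances of at most 1999 bp from a start site, and every other peak was at 2000 bp or more. The members' middles were within 500 bp of a start at 5867 peaks (77.8%), against 72.2% of promoter peaks inside zones. The authors' annotation placed 4104 members (54.5%) in a promoter, 863 in introns, 664 in CpG islands, 439 in intergenic DNA, 432 in a 5′ UTR, 400 in repeats and 301 in exons. H3K4me2 was not used by the rule, and 7506 members (99.6%, 95% exact interval 99.4 to 99.7%) overlapped it, against 99.5% of promoter peaks inside zones and 98.9% of all MTBP peaks, so the overlap was near complete over the whole list. Names could be given to 6477 members, for 6062 distinct genes.

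The promoter DNA of 6 members follows, each 300 bases from 250 before to 50 after a start site that lies in the peak. PPM1B had the highest score of all members. Among members of at least median signal, GABARAP had the lowest deltaC/WT ratio of those with a gene name, and MYCN the highest ratio. RAD51C and RPL13 were the nearest to a zone while outside it, and CTDP1 was among the farthest. The windows are RefSeq's on GRCh38.p14, written in the direction of the gene. They span chr2:44168625-44168924 (plus strand) for PPM1B, chr17:7242400-7242699 (minus) for GABARAP, chr2:15940300-15940599 (plus) for MYCN, chr17:58692352-58692651 (plus) for RAD51C, chr16:89560407-89560706 (plus) for RPL13 and chr18:79679553-79679852 (plus) for CTDP1. Capitals mark exact matches on either strand to the searched motifs.

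PPM1B: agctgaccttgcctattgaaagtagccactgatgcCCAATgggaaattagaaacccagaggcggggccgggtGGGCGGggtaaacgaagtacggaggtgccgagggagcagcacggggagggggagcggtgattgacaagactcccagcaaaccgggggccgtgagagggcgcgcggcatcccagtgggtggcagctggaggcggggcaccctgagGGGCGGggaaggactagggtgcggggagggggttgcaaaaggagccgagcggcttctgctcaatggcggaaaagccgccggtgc

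GABARAP: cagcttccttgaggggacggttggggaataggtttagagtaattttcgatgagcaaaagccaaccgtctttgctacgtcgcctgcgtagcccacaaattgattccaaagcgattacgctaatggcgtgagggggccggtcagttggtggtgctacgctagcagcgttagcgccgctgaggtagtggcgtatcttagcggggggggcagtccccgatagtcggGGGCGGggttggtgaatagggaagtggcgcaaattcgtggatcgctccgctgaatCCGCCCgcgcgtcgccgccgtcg

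MYCN: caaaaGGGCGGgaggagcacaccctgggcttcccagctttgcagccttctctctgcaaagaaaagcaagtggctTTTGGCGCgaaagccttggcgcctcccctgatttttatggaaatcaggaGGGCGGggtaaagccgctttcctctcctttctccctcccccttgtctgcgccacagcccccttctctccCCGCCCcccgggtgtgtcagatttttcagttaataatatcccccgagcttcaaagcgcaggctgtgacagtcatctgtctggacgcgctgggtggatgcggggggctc

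RAD51C: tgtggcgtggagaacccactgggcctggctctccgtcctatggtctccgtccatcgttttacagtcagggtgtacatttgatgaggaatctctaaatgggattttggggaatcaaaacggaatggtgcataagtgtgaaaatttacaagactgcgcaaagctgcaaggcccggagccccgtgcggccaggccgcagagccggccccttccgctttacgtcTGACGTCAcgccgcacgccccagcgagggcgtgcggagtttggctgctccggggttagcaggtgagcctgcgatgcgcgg

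RPL13: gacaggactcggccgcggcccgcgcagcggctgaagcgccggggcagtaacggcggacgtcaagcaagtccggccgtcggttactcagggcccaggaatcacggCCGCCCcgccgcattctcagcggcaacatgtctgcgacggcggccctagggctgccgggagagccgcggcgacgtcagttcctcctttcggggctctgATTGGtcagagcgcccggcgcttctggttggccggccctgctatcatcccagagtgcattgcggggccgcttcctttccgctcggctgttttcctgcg

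CTDP1: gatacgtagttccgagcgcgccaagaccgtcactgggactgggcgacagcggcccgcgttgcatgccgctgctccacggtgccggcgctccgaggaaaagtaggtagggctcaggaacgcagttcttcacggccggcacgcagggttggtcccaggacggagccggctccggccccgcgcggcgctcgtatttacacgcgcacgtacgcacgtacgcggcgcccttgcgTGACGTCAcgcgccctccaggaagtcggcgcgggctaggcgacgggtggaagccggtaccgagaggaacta

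The capitals in PPM1B, GABARAP and MYCN are GC boxes (GGGCGG), with a CCAAT box in PPM1B and a letter run TTTGGCGC of the E2F kind in MYCN. RAD51C and CTDP1 each hold a single CRE (TGACGTCA), and RPL13 a CCAAT box and a GC box. Among all 34961 RefSeq windows on these chromosomes the GC box occurred in 45.03%, CCAAT in 34.6%, TGACGTCA in 1.85% and TTTGGCGC in 0.655%. GC content of the 6 windows spanned 58.7% for MYCN to 69.0% for RPL13.

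The first comparison asked how MTBP at these promoters differed from MTBP at promoters inside zones. In the WT line their levels were close. The authors' score had a median of 190 both outside and inside zones. The WT signal had a median of 392 outside (95% interval of the median 386 to 398) and 399.9 inside (389.98 to 409). It was higher outside on 10 of 23 chromosomes and lower on 13. The median fold of the strongest H3K4me2 peak at each was 28.1 outside and 27.7 inside, higher outside on 11 of 23 chromosomes. Members were slightly narrower, with a median width of 1048 bp against 1100 bp, and narrower on 19 chromosomes. The intervals of the WT medians overlapped.

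The deltaC line differed more. Its signal had a median of 213 outside zones (209 to 218) and 181 inside (176 to 186). It was higher outside on 19 of 23 chromosomes. The log2 ratio, log2((deltaC + 1)/(WT + 1)), had a median of −0.90 outside (−0.92 to −0.89) and −1.17 inside (−1.19 to −1.15), a difference of 0.27. It was higher outside on 23 of 23 chromosomes, by 0.09 on chromosome 8 to 0.35 on chromosome 21. Since the authors' scaling of the 2 lines is not stated, the level of the ratio has no fixed zero, whereas a common factor leaves the difference between classes unchanged apart from the pseudocount. Centred on the median of all MTBP peaks the members' median became 0.03.

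Counts past a fold of 2 had the same order. The deltaC signal was at or below a log2 ratio of −1 at 3166 members (42.0%) and at 62.5% of promoter peaks inside zones, where the share over all MTBP peaks was 44.9%. With the ratio centred on the median of all MTBP peaks, 418 members were at −1 or less. The centred count was not made for other peaks, so it allows no comparison between classes. A log2 ratio of 1 or more was found at 23 members (0.305%) and 2 promoter peaks inside zones, with 0.419% of all MTBP peaks. Signal was lower in deltaC than in WT at 7273 members (96.5%) and at 98.9% of promoter peaks inside zones, and the share over all MTBP peaks was 95.5%. Peak names began with WT at 7371 members. Other names were at 166 members (2.20%), 0.885% of promoter peaks inside zones and 2.94% of all MTBP peaks. What the names stand for is not stated. If they give the line that called a peak, the list itself favoured lower deltaC signals, and the direction of these counts would be no result. With WT names only, 3165 members were at −1 or less. Exact zeros in deltaC were listed at 24 members (0.318%), against 0.637% of promoter peaks inside zones and 0.623% of all MTBP peaks. In WT a zero was listed at 1 member, and at 2 of all MTBP peaks.

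The ratio moved with distance from the zones. It had a median of −1.17 in zones, −1.08 within 10 kb, −1.06 at 10 to 50 kb, −0.96 at 50 to 100 kb, −0.90 at 100 to 250 kb, −0.85 at 250 to 500 kb, −0.82 at 500 to 1000 kb and −0.81 beyond 1000 kb. The median deltaC signal was 181 in zones, 192 within 10 kb, 210.5 at 100 to 250 kb and 231 beyond 1000 kb, while the WT signal stayed between 385 and 403. Median H3K4me2 fold stayed between 27.4 and 29.1. The share at a log2 ratio of −1 or less was 62.5% in zones, 54.7% within 10 kb and 34.2% beyond 1000 kb. Enhancer-class peaks showed the same order, with medians of −0.91 outside and −1.11 inside zones, as did the other class with −0.85 and −1.10. Beyond 1000 kb the median was −0.80 for enhancer-class peaks and −0.79 for the other class, close to the −0.81 of promoter peaks.

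**Figure D1:**
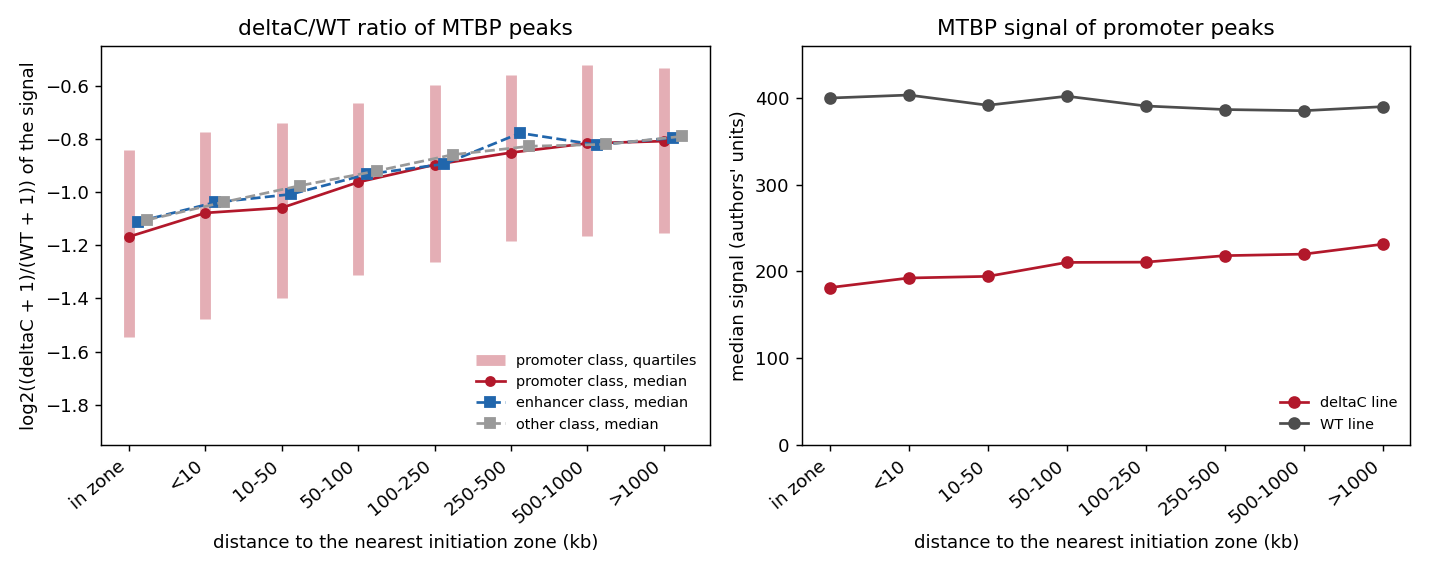
Left, the median log2 deltaC/WT signal of MTBP peaks by distance to the nearest initiation zone, with the quartiles of promoter peaks as bars and the 3 location classes as points. Right, the median signal of promoter peaks in the deltaC and WT lines, in the authors' units. The median ratio of promoter peaks is −1.17 in zones and −0.81 beyond 1000 kb, while the WT signal stays between 385 and 403.

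The ratio was also compared at like values of other measures. Within quintiles of WT signal the outside-minus-inside difference was 0.24 to 0.30, within quintiles of H3K4me2 fold 0.24 to 0.31, within quintiles of peak width 0.24 to 0.31 and within quintiles of score 0.21 to 0.30. Within quintiles of the number of neighbouring MTBP peaks it was 0.20 to 0.27, and within quintiles of promoter GC content 0.25 to 0.30. Members exceeded promoter peaks inside zones in 5 of 5 quintiles of each of these. The difference was smaller between neighbours on a chromosome. In 171 bins of 5 Mb with at least 5 promoter peaks of each kind, members were higher in 130 (76.0%), and the median difference was 0.13 (quartiles 0.01 to 0.29), against 0.27 genome-wide. The part of DNA copy number in the ratio was not tested.

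Along the chromosomes, median ratios were read in the 362 bins of 5 Mb with at least 10 members. The lowest was chr17 from 80 to 85 Mb, with −2.07 over 20 members (deltaC 96.3, WT 331). It was followed by chr22 from 45 to 50 Mb with −1.59 over 10 and chr10 from 5 to 10 Mb with −1.38 over 11. Then came chr13 from 75 to 80 Mb with −1.37 over 11 and chr19 from 0 to 5 Mb with −1.35 over 32. The highest was chr2 from 15 to 20 Mb with −0.43 over 13 members. Members in the first or last 2 Mb of a chromosome (321) had a median ratio of −1.12, against −0.87 for the 2133 members over 50 Mb from an end. The WT medians there were 319 and 419, and the median distances to a zone 62.2 kb and 633 kb.

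**Figure D2:**
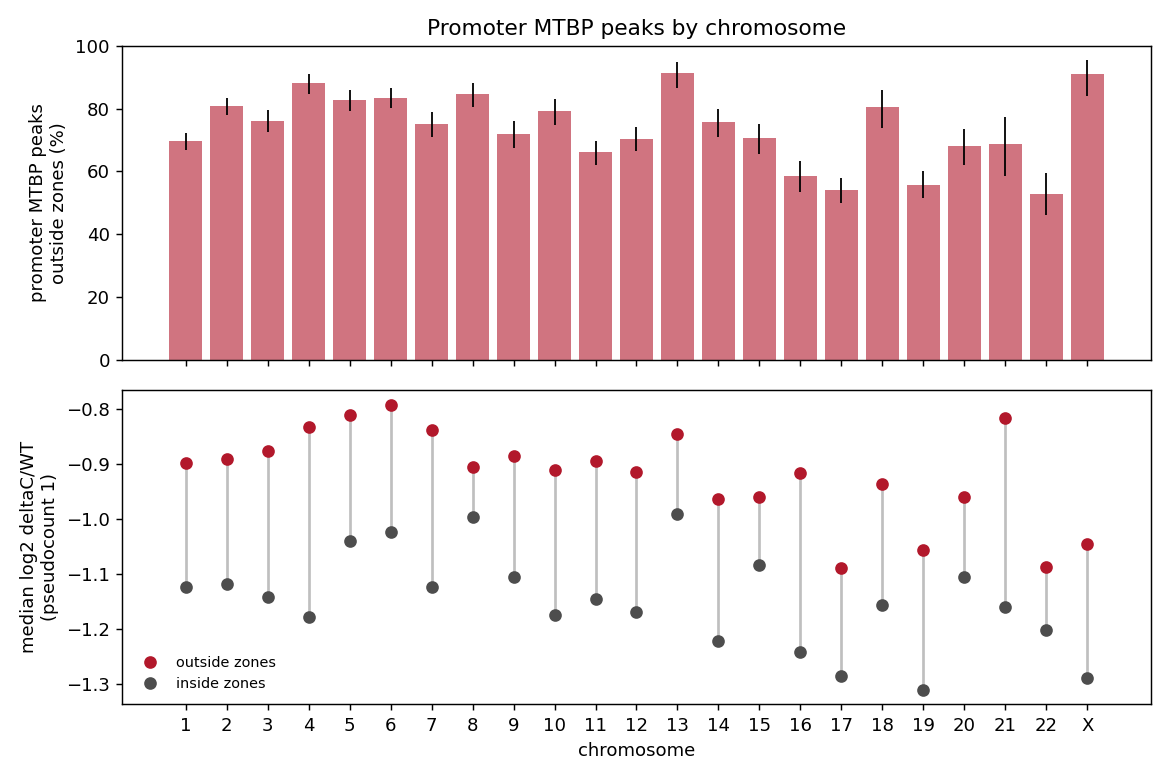
Top, the share of promoter MTBP peaks outside zones on each chromosome, with 95% exact binomial intervals. Bottom, the median log2 deltaC/WT signal of promoter peaks outside and inside zones, joined by a line, with outside higher on 23 of 23 chromosomes.

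The share of promoter peaks outside zones varied over chromosomes. It was 52.8% on chromosome 22, 53.95% on 17, 55.8% on 19 and 58.6% on 16, against 88.2% on 4, 91.1% on X and 91.5% on 13. Members lay at a median of 267 kb from the nearest zone, with quartiles at 55.1 and 1252 kb. More than 5000 kb from any zone were 522 members, of which 107 were on chromosome 4 and 78 on chromosome 5. These 522 had a median WT signal of 399 and a median ratio of −0.81. The distance of members is above 0 by the rule. Enhancer-class peaks outside zones were nearer to them, with a median of 168994 bp, and the other class was farther, with 559618 bp.

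Members were more isolated than promoter peaks inside zones. Within 50 kb they had a median of 1 other MTBP peak, against 3 inside zones, and 4 H3K4me2 peaks, against 7. Both were lower outside on 23 of 23 chromosomes. No other MTBP peak within 50 kb was found for 1927 members (25.6%, 95% exact interval 24.6 to 26.6%) and for 4.56% of promoter peaks inside zones (3.82 to 5.40%). The share was 23.99% for the other class outside zones, 13.1% for enhancer-class peaks outside zones and 18.3% for all MTBP peaks.

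The promoters also differed in arrangement. A divergent promoter serves a pair of genes that start close together and are read in opposite directions. With RefSeq starts of protein-coding genes no more than 1 kb apart and both within 1 kb of the peak's middle, 605 of 7227 members (8.37%, 7.74 to 9.03%) were at a divergent pair, against 94 of 2770 promoter peaks inside zones (3.39%, 2.75 to 4.14%). The table of starts holds none for chromosome 8, and members were higher on 22 of the other 22 chromosomes. With pairs of any genes the shares were 18.1% and 10.4%. The difference of 4.98 points was 1.47 points when zones were widened by 50 kb on each side, an alternative added after the data were seen. By distance the share was 8.30% within 10 kb, 11.9% at 10 to 50 kb and 7.51% beyond 1000 kb. Divergent members were wider than the other members, with a median of 1227 bp against 1031 bp. Listed signals of divergent members were 457 against 385 in WT and 250.1 against 209 in deltaC. Their H3K4me2 fold was 27.4 against 28.1, and their ratio −0.91 against −0.90. Inside zones divergent peaks were wider too, with 1217.5 bp against 1094 bp, and their WT signal was 445 against 398. The deltaC signal there was 202 against 179. Signals were not divided by peak width, and the part of width in these differences was not tested.

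Among divergent members the highest scores were at ATG3 and SLC35A5 (score 1161), INTS7 and DTL (992) and SHC1 and CKS1B (977), examples chosen after their values were seen. ATG3 is a conjugating enzyme of autophagy, and its start lies 83 bp from that of SLC35A5, a solute carrier. The peak had a signal of 773 in deltaC and 1301 in WT. DTL is the adaptor that targets the licensing factor CDT1 for destruction, and starts 191 bp from the Integrator subunit gene INTS7. That peak had 363 in deltaC and 946 in WT. CKS1B is a subunit of cyclin-dependent kinases, and the peak between it and SHC1 had 929 in deltaC and 2116 in WT.

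The share of promoters with MTBP was also read at like levels of H3K4me2. Outside zones, protein-coding genes with H3K4me2 at a start had an MTBP peak at 81.7% of 1559 divergent genes and 66.0% of 6293 others. In the lowest quintile of H3K4me2 fold these shares were 61.5% and 40.1%, and in the highest quintile 91.5% and 82.4%. Divergent genes had the higher share in 5 of 5 quintiles, and both genes of a pair can count the same peak. Among genes with MTBP, 23.6% were divergent outside zones and 11.9% inside zones, against 11.8% of genes outside zones with H3K4me2 and no MTBP.

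Members within 10 kb of a zone had it upstream of the gene more often than downstream. For non-divergent members with a protein-coding start, the nearest zone lay on the upstream side of the gene at 244 of 359 within 10 kb (68.0%, 95% exact interval 62.9 to 72.8%). At 10 to 50 kb it was 55.6% (51.8 to 59.4%), at 50 to 100 kb 49.0% and beyond 1000 kb 50.1% (47.3 to 52.8%). Within 10 kb the ratio was −1.06 for the 244 members with the zone upstream and −1.23 for the 115 with it downstream. At 10 to 50 kb it was −1.08 and −1.07, and in each farther class it was also lower with the zone upstream. Over all distances the medians were −0.93 upstream and −0.88 downstream.

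**Figure D3:**
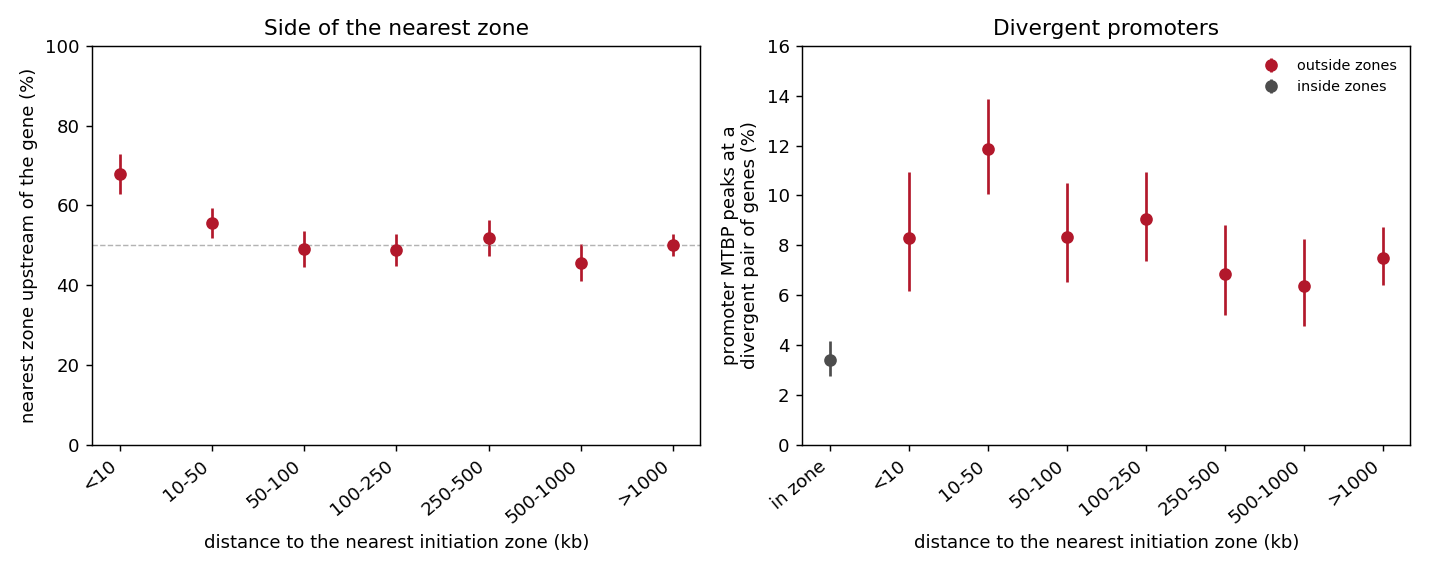
Left, the share of non-divergent members whose nearest zone lies upstream of the gene, by distance to the zone, with a dashed line at equal shares. Right, the share of promoter peaks at a divergent pair of protein-coding genes, in zones and by distance outside them. Bars are 95% exact binomial intervals. The upstream share is 68.0% within 10 kb and 50.1% beyond 1000 kb.

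Few summits of the members lay at the start site itself. A RefSeq start matched the authors' distance to within 1 bp for 2208 members and 859 promoter peaks inside zones. The summits of these members had 2 modes, at 250 to 150 bp upstream (18.0% of summits) and at 100 to 150 bp downstream (13.6%). Within 50 bp of the start lay 5.39% (4.48 to 6.41%). From 400 to 50 bp upstream lay 42.0% of members' summits and 43.8% of those inside zones. From 50 to 400 bp downstream lay 32.5% (30.5 to 34.5%) of members' summits and 25.3% (22.4 to 28.3%) of those inside zones. Without peaks at a divergent pair of any genes, 30.6% of members' summits were in that downstream stretch and 40.4% in the upstream one. Members with a downstream summit had 202 in deltaC and 364 in WT, at a median width of 1017 bp. Those with an upstream summit had 231 and 417, at 1092 bp. The start lay within the peak at 1909 of the 2208 members (86.5%).

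**Figure D4:**
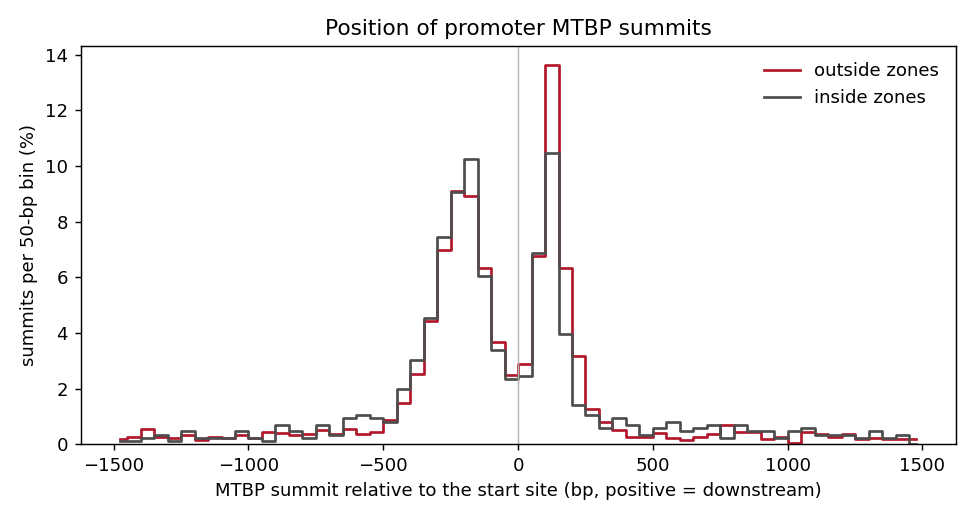
The position of MTBP summits relative to the matched start site, in bins of 50 bp, as the share of summits of 2208 promoter peaks outside zones and of 859 inside zones. Both have a mode upstream and a mode downstream with few summits at the start, and the downstream bin from 100 to 150 bp holds 13.6% outside and 10.5% inside.

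The members of highest score are described first. PPM1B, a protein phosphatase gene, had a score of 2336 with 1362 in deltaC and 3116 in WT (chr2:44167423-44170108, annotated promoter, 18.5 kb from a zone). PPFIBP2, a liprin gene, had a score of 1788 with 1161 in deltaC and 1764 in WT (chr11:7575208-7579050). PAIP2B, which encodes a regulator of the poly(A)-binding protein, had 1037 in deltaC and 1565 in WT. GSN, the actin-severing protein gelsolin, had 811 and 1549 for deltaC and WT, and its peak was annotated to a repeat. The others of the highest 10 scores were ATG3, LOC101927623, the ubiquitin ligase gene CBLB, the polarity gene PARD3B, the histone demethylase gene KDM4A and an unnamed intergenic peak on chromosome 17. The ratios of these 10 ran from −0.59 at PAIP2B to −1.42 at KDM4A, on both sides of the median of −0.93 over all MTBP peaks.

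The lowest scores were at NDC80 (33), a kinetochore gene, SART3 (33), a splicing factor gene, ZMPSTE24 (44), a protease of prelamin A, ASRGL1 (44) and COPB1 (47, tied with others), a coat protein of vesicles. Signals at NDC80 were 3.90 in deltaC and 38.1 in WT, and at COPB1 185 and 226. At ZMPSTE24 and ASRGL1 the deltaC signal exceeded that of WT, with 111 against 69.8 and 74.6 against 47.6.

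Ratios at the extremes were compared among the 3769 members whose mean signal was at least the members' median of 302. The lowest was at an unnamed repeat-annotated peak on chromosome 2 (17.3 in deltaC, 589 in WT, log2 ratio −5.01). GABARAP, a ubiquitin-like protein of autophagosomes, had 60.0 in deltaC and 664 in WT (−3.45, chr17:7241475-7243329). TBCD, a tubulin folding cofactor gene, had 163 in deltaC and 1390 in WT (−3.09). The RNA polymerase III subunit gene POLR3E (−2.58), the lysophospholipid acyltransferase gene MBOAT7 (−2.51) and FZR1 (−2.41), an activator of the anaphase-promoting complex, followed. TBCD and an unnamed member with −2.90 lie within the stretch of chromosome 17 from 80 to 85 Mb.

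At the other extreme of the same 3769 members MYCN had the highest ratio, with 386 in deltaC and 223 in WT (0.79). Members below that signal limit reached higher ratios, such as 1.80 at LOC105372228. MYCN is a MYC-family transcription factor gene, and its peak (chr2:15939900-15940843) was 4222 kb from the nearest zone. The long non-coding RNA gene LINC02023 had 0.33, NSMCE2, a SUMO ligase gene, 0.31, and ELMOD2, a regulator of small GTPases, 0.30. GLIS3, CCNH, which encodes cyclin H, and TANK had 0.27 to 0.28. The 8 members of this kind lay 197 to 7162 kb from a zone.

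Members nearest to a zone edge were set beside promoter peaks just inside one, with no test since the rule used this edge. RAD51C, a homologous recombination gene, ended 1 bp from a zone and had 112 in deltaC and 456 in WT (−2.02, chr17:58692278-58693431). RPL13, a ribosomal protein gene, had 69.3 and 227 (−1.70), XIAP, an inhibitor of apoptosis, 195 and 269 (−0.47), EMP2 193 and 278 (−0.52) and ZNF367 432 and 777 (−0.85). Just inside a zone, RPL28 had 175 in deltaC and 508 in WT (−1.53), TMEM53 518 and 1305 (−1.33), GINM1 202 and 207 (−0.03), DNM1L 166 and 314 (−0.92) and SLC9A8 338 and 670 (−0.99). The ranges of the ratio outside and inside the edge overlapped.

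The farthest members sat together near the end of chromosome 18, at least 21044 kb from any zone. The farthest was RBFA, a mitochondrial ribosome assembly factor gene (21468 kb), with 37.4 in deltaC and 226 in WT (−2.56, chr18:80034326-80035008). TXNL4A, a spliceosome component gene, had 74.6 and 294 (−1.96), HSBP1L1 103 and 244 (−1.23) and CTDP1, a phosphatase of the RNA polymerase II tail, 254 and 490 (−0.95). LOC105372228, by contrast, had 299 in deltaC and 85.0 in WT (1.80). Among these 5 neighbours, the listed signal was lower in deltaC at 4 and higher at 1, with the scaling of the lines unstated. The ratio of CTDP1 was close to the median of −0.93 over all MTBP peaks.

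A single member was found at 5683 named genes, while 351 genes had 2, 20 had 3 and 8 had 4. The first 5 of these 8 in alphabetical order were BCAR3, CAST, HNRNPF, NEDD4L and PPFIBP2. At PPFIBP2 the 4 members had ratios of 0.69, −0.60, −2.17 and −0.87. At BCAR3, an adaptor gene, they had −0.42, −0.45, −0.46 and −0.87. The 4 values spread more widely at PPFIBP2 than at BCAR3.

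Genes were then matched to members. Of 19970 protein-coding genes, 3551 (17.8%) were named by a member's annotated promoter accession. With the authors' gene names and RefSeq starts within 2 kb added, 6320 genes (31.6%) had a member, 2164 (10.8%) had a promoter peak inside a zone, and 58 had both. H3K4me2 at a start with no MTBP peak was found at 3998 (20.0%). The wider match, added after the files were seen, is used for the gene lists below. In it, the 4159 genes without a start window could be matched by names and accessions only.

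Of the 20 gene lists, 18 had a larger share with a member than the 31.6% of all protein-coding genes. Centrosome and cilium genes had the largest, with 50 of 65 (76.9%) outside zones and 6 inside. IFT27, an intraflagellar transport gene, had 305 in deltaC and 751 in WT, and CEP97, a centriolar protein gene, 400.4 and 524. BBS5, CEP112, CEP15 and CEP72 had H3K4me2 and no MTBP. Initiation factor genes followed with 25 of 38 (65.8%) outside and 5 inside zones. ORC2 and ORC4, subunits of the origin recognition complex, had 438 in deltaC and 863 in WT and 427 and 792. MCM3, a subunit of the helicase, had 359 and 787, and the primase gene PRIM1 326 and 670 for deltaC and WT. CDT1, DONSON, GINS3 and MCM5 were among those with H3K4me2 and no MTBP.

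Several lists of gene expression and energy metabolism lay between 57.8% and 60.9%. Spliceosome genes had 28 of 46 (60.9%), mitochondrial ribosomal protein genes 45 of 77 (58.4%), proteasome genes 29 of 50 (58.0%) and complex I genes, assembly factors included, 26 of 45 (57.8%). SF3A2 had 157 in deltaC and 632 in WT, MRPL54 276 and 838, PSMA5 476 and 1001, and NDUFA11 492 and 1167. DNA repair genes had 24 of 41 (58.5%), among them the Fanconi anaemia gene FANCF with 354 in deltaC and 907 in WT. Cytochrome oxidase genes had 14 of 26 (53.8%), Mediator 16 of 30 (53.3%) and aminoacyl-tRNA synthetases 18 of 34 (52.9%). Vesicle transport genes had 66 of 141 (46.8%), with RAB1A at 592 in deltaC and 1254 in WT. Kelch and E3 adaptor genes had 45 of 100, with FBXO5, an inhibitor of the anaphase-promoting complex, at 521 and 912.

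Cytosolic ribosomal protein genes had 38 of 91 (41.8%) with 17 inside zones, and genes with an EIF symbol 21 of 55 (38.2%) with 13 inside. Most encode translation initiation factors, but EIF2AK1, EIF2AK2 and EIF2AK3, also counted, encode kinases of such a factor. RPS19 had 418 in deltaC and 799 in WT, and RPL10A, RPL11, RPL13A and RPL14 had H3K4me2 and no MTBP. RNA polymerase II and TFII factor genes had 24 of 71 (33.8%) and numbered zinc finger genes 167 of 517 (32.3%), both near the share of all genes. Solute carriers had 99 of 386 (25.6%) and olfactory receptors 2 of 392 (0.510%). Replicative histone genes had 31 of 74 and HOX genes 14 of 40 with 0 inside zones in both lists. The histone gene H4C1 had 334 in deltaC and 623 in WT, and HOXA10, a developmental transcription factor gene, 148 and 350.4.

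The shares were also read against H3K4me2. Among the genes with H3K4me2, 48.9% of all protein-coding genes had a member. Of the 20 lists, 15 were above this and 5 below, from 78.1% of centrosome and cilium genes, 66.7% of cytochrome oxidase genes and 65.8% of initiation factor genes to 42.4% of solute carriers and 9.09% of olfactory receptors. Of all genes with a promoter MTBP peak, 75.01% had it outside zones. For 12 of the 20 lists the share was larger, and it was 89.3% for centrosome and cilium genes and 61.8% for genes with an EIF symbol. Lists of related genes hold clusters and divergent pairs, so genes of a list can share a peak.

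**Figure D5:**
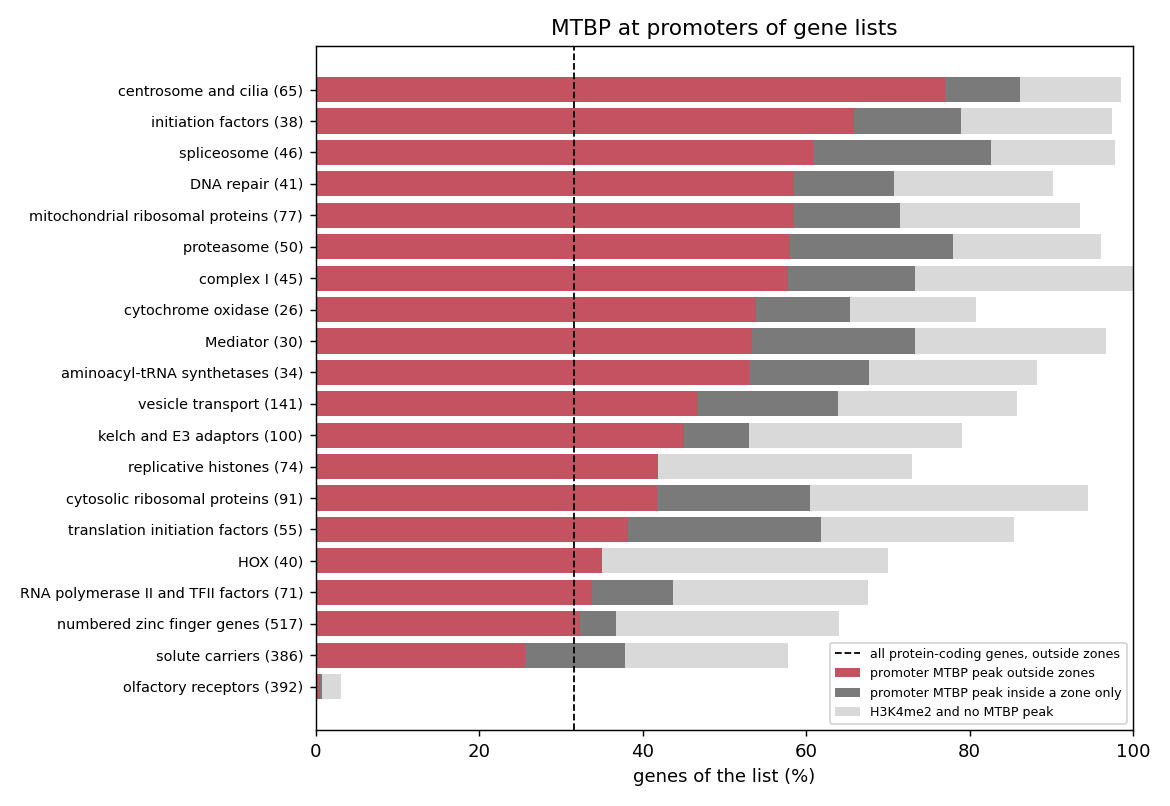
The share of genes of each list with a promoter MTBP peak outside zones, with one inside a zone only, and with H3K4me2 and no MTBP peak. The number of genes is in brackets, the row of translation initiation factors holds all genes with an EIF symbol, and the dashed line marks the 31.6% of all protein-coding genes with a peak outside zones. Centrosome and cilium genes reach 76.9% and olfactory receptors 0.510%.

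Marker genes were used to check the cell type. Of all protein-coding genes, 63.8% had H3K4me2, 31.6% a member and 10.8% a promoter peak inside a zone. Of 14 colorectal epithelial markers 12 (85.7%) had H3K4me2, 3 (21.4%) had a member and 5 (35.7%) a promoter peak inside a zone. The members were ASCL2 and LGR5, intestinal stem cell genes, with 777 in deltaC and 1132 in WT and 580.0 and 928, and KRT20, with 146 and 222. H3K4me2 was present at 3 of 5 hepatocyte, 2 of 5 neuron, 2 of 5 blood and 0 of 5 muscle markers. Members were at 1 of the hepatocyte markers (TF), 2 of the neuron markers (GAD1 and MAP2) and 0 of the blood and muscle markers.

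Promoter sequence was compared over genes with H3K4me2, using the window with the highest H3K4me2 fold for each gene. GC content had a median of 65.0% at 5254 genes with MTBP outside zones, 66.0% at 2423 genes outside zones with H3K4me2 and no MTBP, and 67.3% at 1744 genes with MTBP inside zones. Over all windows it was 58.7%. The observed over expected ratio of CpG was 0.858, 0.831, 0.837 and 0.58 in the same groups. The ETS letters CCGGAAG occurred in 22.5% of genes with MTBP outside zones, 17.1% of those without MTBP, 18.1% of those with MTBP inside zones and 10.3% of all windows. The CCAAT box occurred in 39.0%, 30.4%, 41.5% and 34.6%. The GC box was in 71.3%, 68.4%, 77.3% and 45.03%, and the NRF1 core GCGCATGC in 6.64%, 4.37%, 4.30% and 3.06%. The TATA letters TATAAA were in 4.99%, 6.60%, 5.16% and 11.5%. A match is a description of letters and not a bound site. The gene groups were not matched for H3K4me2 or for divergent pairs. Median H3K4me2 fold was 28.7 with MTBP outside zones, 21.7 without MTBP and 28.5 with MTBP inside zones. The E-box CACGTG was in 10.6% of genes with MTBP and 9.41% of genes without it outside zones. The YY1 core AAGATGGC was in 5.48% and 4.66%, and the element CTCGCGAG in 2.49% and 2.27%. The CRE was in 3.20% and 3.30%. The AP-1 letters TGACTCA, read on both strands, were in 2.76% and 3.05%. The E2F letters TTTGGCGC were in 1.45% and 0.495%, and TTTCCCGC in 2.74% and 3.22%.

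Only 31 members overlapped no H3K4me2 peak, and 21 of them had no gene name. They were weaker than the rest, with a median score of 112, 95.9 in deltaC and 178 in WT, and a median ratio of −0.88. The highest scores among them were 1256 for an intergenic peak on chromosome 17 (190 in deltaC, 403 in WT), 815 for an intronic peak on chromosome 2 and 632 for a peak near the end of chromosome 1 (chr1:634430-635023). Signal in the control and IgG libraries at these places was not analysed here, and its part in any of these values was not tested.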

How the data were processed

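MTBP CUT&RUN, H3K4me2 CUT&RUN and EdU-seq were analysed as 3 deposited lists. The submitters' processing notes name Bowtie2, HOMER, MACS2 and Trim Galore, and hg38 as genome. Their versions, and whether replicates were pooled, are not given in the sources. The MTBP list holds the authors' score per peak, of unstated scale, and the authors' signal for each line, with no library values. Signals were used as listed and not per base, so a wider peak can have a higher signal. The H3K4me2 list holds the deposited fold ratio over background and −log10 p values and a score, of which the fold and the score were used. The zone list's authors' score was not used.

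Overlap meant at least 1 bp. Ratios took a pseudocount of 1. As the files hold no counts per library, the planned count test was not run. Genes and start sites came from RefSeq GRCh38.p14. The table has 34961 promoter windows on these chromosomes, none on chromosome 8, and 4159 protein-coding genes have none. For those genes, gene ends were used for H3K4me2 and for any MTBP peak. Their promoter peaks outside or inside zones were matched by the authors' gene names and accessions only. Shares have 95% exact (Clopper-Pearson) intervals and medians order-statistic intervals. Both cover counting over peaks only, and neighbouring peaks are not independent. Named members were those at the extremes of score, ratio and distance, genes with most members, and up to 4 per list by score. Many lists were taken by gene symbol, so they can hold relatives of another function. Kinase genes named RPS6K were left out of the ribosomal protein list. The members, gene lists and measures were chosen with earlier results of these data known. Overlap and pair search were tested on simulated data. The 10 peaks on Y were left out. Analyses used Python 3.11.15, numpy 2.4.6, pandas 2.3.3 and scipy 1.17.1.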

Additional observations from a re-analysis of the deposited data

How the results depend on the processing

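No paired analysis was possible because the lists hold no values per library, and for the same reason no replicate could be left out in turn. Of 106 values under alternatives, 77 stayed within 1.5 times for a count or within the interval of the value for a share or median, 28 moved and 1 changed sign. The sign change was the members' median log2 deltaC/WT, which became 0.031 when centred on all MTBP peaks. That setting also left 418 members at −1 or less. Peaks of at least the median score gave 3963 members, 1727 of them at −1 or less, 99.8% with H3K4me2, a fold of 28.8, a ratio of −0.94, a score of 289, 9.98% of genes and a divergent difference of 6.07 points. Zones widened by 10 kb gave a ratio of −0.89, a distance of 330 kb, 16.4% of genes and an isolation difference of 22.3 points. Zones widened by 50 kb gave −0.86, 520.3 kb, 13.4%, 24.4 points and a divergent difference of 1.47 points. A middle within 500 bp of a start gave a score of 201, 16.7% of genes, 5.91 points and 22.6 points. Pairs of any genes gave 7.78 points. H3K4me2 of at least the median score left 93.1% of members with the mark. A pseudocount of 10 gave a ratio of −0.87, and peaks of at least the median signal −0.86. Genes matched at either end within 1 kb were 30.6%, and with start sites and names 31.6%. The outside-minus-inside difference of the ratio was 0.24 to 0.28 under 12 alternatives, all chosen after the data were seen, as were those of the divergent and isolation differences. None of the 12 compared peaks at like positions along a chromosome. Within bins of 5 Mb the median difference was smaller, at 0.13. Unknown depth limits what a low signal or an exact 0 can show.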
